A study of Caenorhabditis elegans with 12 samples.

Results

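The genes of the RNA exosome were examined at the transcript level in Caenorhabditis elegans. They were chosen by name, as dis-3, every gene whose symbol begins with exos-, crn-3, crn-5 and mtr-4. This gave 12 genes of the 46934 gene entries counted. All 12 were among the 16259 genes with enough counts to be tested. Each had between 486 and 7278 counts in every library, a depth at which counting error was between 1.17% and 4.54% of a value.

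RNA came from whole hermaphrodites in 4 genotypes with 3 libraries each, 12 libraries in all. The genotypes were the double mutant eat-2(ad1116); dis-3(L75Q) (strain IJ2290), the single mutant dis-3(L75Q) (strain VC40130), the single mutant eat-2(ad1116) (strain IJ173) and wild type (strain N2). All animals were prefertile adults kept on OP50, an Escherichia coli strain used as food, at 20 °C, and the labels give 3 independent harvests. L75Q is a substitution in the DIS-3 protein, and ad1116 is an allele of eat-2, which encodes a subunit of an acetylcholine receptor in the pharynx, the feeding organ. eat-2 mutants feed slowly and serve as a model of dietary restriction. Each genotype was 1 strain, so an allele and any other difference between strains cannot be told apart. The RNA level of dis-3 does not check the L75Q label, and eat-2 itself had only 6 to 24 counts in a library. Library totals ran from 31812386 to 32773817 counts.

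The RNA exosome is a barrel of proteins that trims and degrades RNA from its 3′ end. In yeast and human cells a ring of proteins related to the bacterial enzyme RNase PH, covered by a cap of RNA-binding proteins, leads RNA towards a catalytic subunit. In the nucleus the complex matures ribosomal and small nucleolar RNAs and removes faulty transcripts. In the cytoplasm it degrades messenger RNA. DIS-3 is the catalytic subunit named Rrp44 in yeast and acts as exonuclease and endonuclease. CRN-3 is related to the nuclear exonuclease Rrp6. EXOS-1, EXOS-2 and EXOS-3 are related to the cap proteins Csl4, Rrp4 and Rrp40. The ring proteins are EXOS-4.1 and EXOS-4.2 (both of the Rrp41 class), EXOS-7 (Rrp42), EXOS-8 (Rrp43), EXOS-9 (Rrp45) and CRN-5 (Rrp46). MTR-4 is related to the nuclear helicase that feeds RNA to the exosome.

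The 12 genes lie on 5 chromosomes in the WBcel235 genome build, all but exos-9 on the plus strand. Of the catalytic subunits, dis-3 spans chromosome IV from 10097202 to 10106523 and crn-3 spans chromosome II from 10588042 to 10592652. Of the cap genes, exos-1 lies on III at 11009043 to 11010588, exos-2 on IV at 6415478 to 6417460 and exos-3 on I at 10518379 to 10519258. Of the ring genes, exos-4.1 lies on IV at 13098999 to 13100617, exos-4.2 on III at 860198 to 862198 and exos-7 on V at 20838865 to 20841582. The other ring genes are exos-8 on II at 6741691 to 6742816, exos-9 on III at 7196224 to 7198073 and crn-5 on II at 10592752 to 10593591. The helicase gene mtr-4 lies on IV at 9825694 to 9830620.

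A feature that the choice by name did not use is their spacing. In nematodes, genes that follow each other closely on 1 strand are often transcribed together as an operon. Among the 12 genes, 9 had an annotated protein-coding gene on the same strand within 1 kb, and dis-3, exos-2 and mtr-4 had none. The share of all genes with such a neighbour was not taken, so the count only describes these 12. The gaps ran from 77 to 798 bases, with a median of 101. The gene crn-5 starts 99 bases after the end of crn-3, and algn-9 ends 116 bases before crn-3 begins. The annotation used here does not mark operons, so shared transcription was not tested.

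Levels of different genes were compared per length, as TPM, a length-scaled share of all transcripts, over the union of each gene's annotated exons. Over the 12 libraries the genes spanned 3.64-fold. The helicase gene mtr-4 was highest at 72.1 ± 3.52 TPM (SD, n = 12), followed by dis-3 at 63.3 ± 4.52 TPM. These SDs include differences between genotypes. The gene crn-3 averaged 53.0 ± 5.65 TPM and exos-9 averaged 49.6 ± 3.59 TPM. The cap gene exos-3 averaged 46.1 ± 9.48 TPM and the ring gene exos-7 averaged 41.4 ± 3.21 TPM.

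Below them lay exos-8 at 35.3 ± 3.97, exos-1 at 34.2 ± 2.81, exos-4.1 at 34.2 ± 4.41 and crn-5 at 34.0 ± 3.63 TPM. The ring gene exos-4.2 averaged 26.5 ± 4.66 TPM and the cap gene exos-2 was lowest at 19.8 ± 2.67 TPM. The genes mtr-4, dis-3 and exos-2 held the first, the second and the last place in each of the 12 libraries. The neighbours in this order exos-8, exos-1, exos-4.1 and crn-5 had close means, and their differences were not tested. The value of exos-8 was above that of exos-1 in 9 of 12 libraries. That of exos-1 was above that of exos-4.1 in 5 of 12, and that of exos-4.1 above that of crn-5 in 7 of 12. The other gene of the Rrp41 class, exos-4.2, held place 10 or 11 in each library. The level of exos-4.1 carries a further limit described below.

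**Figure D1:**
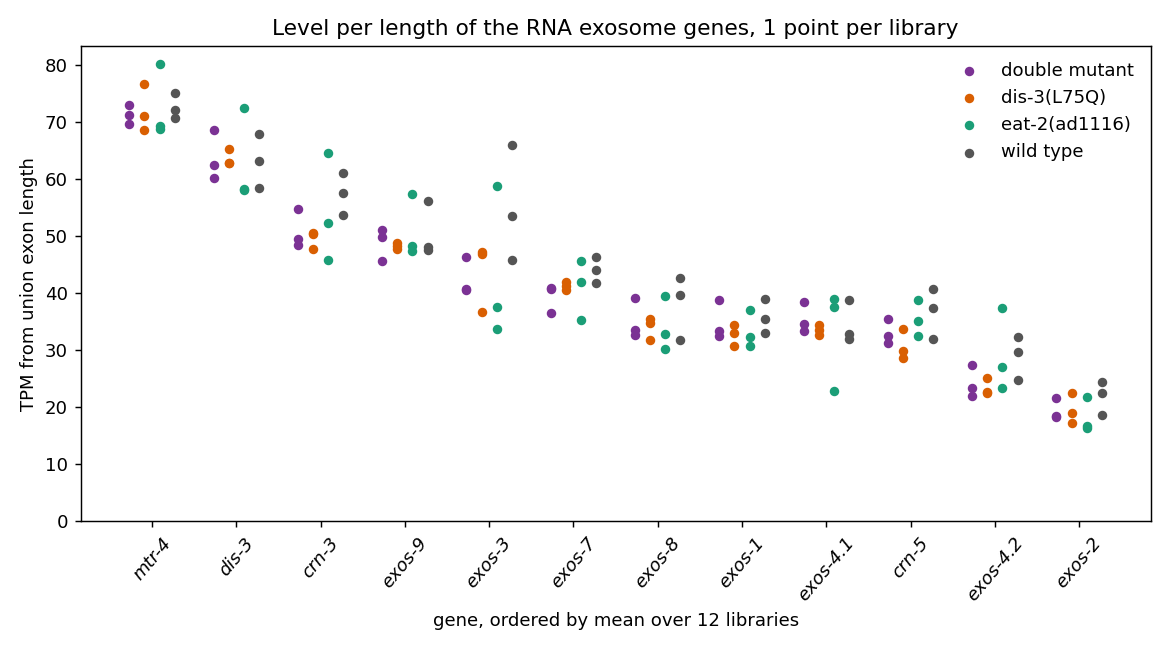
Level of each of the 12 exosome genes in each library, in TPM on the y axis, with genes on the x axis in the order of their mean over 12 libraries. Points are single libraries coloured by genotype. The gene mtr-4 sits at 68.5 to 80.1 TPM and exos-2 at 16.3 to 24.5 TPM.

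The members had a lower median variation among replicates than all tested genes. They lay between the 65.0 and 89.8 percentiles of mean TPM among tested genes, and genes of like level were not compared. The median coefficient of variation within a genotype, taken over the 12 genes and 4 genotypes from levels in CPM (counts relative to a library size scaled by the trimmed mean of M-values), was 6.63%, against 15.6% over all tested genes. The smallest was 0.835% for mtr-4 in wild type. The largest were 22.8% for exos-4.1 and 22.7% for exos-3, both in eat-2(ad1116). In the double mutant the median was 6.32% for the members, against 9.11% over all tested genes.

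In dis-3(L75Q) 10 of the 12 exosome genes had a lower fitted level than in wild type, against 48.1% of all tested genes, and none was called. The transcript of dis-3 itself, the gene that carries the substitution, had 184, 190 and 182 CPM in dis-3(L75Q), against 188, 168 and 189 CPM in wild type. The groups overlapped. The difference was 0.03 ± 0.08 on the log2 scale (standard error), with a 95% interval from -0.14 to 0.20 and an adjusted p of 0.830 in edgeR's quasi-likelihood test. The helicase gene mtr-4 had 220, 236 and 211 CPM in dis-3(L75Q), against 223, 219 and 221 CPM in wild type, a log2 difference of 0.01 ± 0.07.

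For the nuclear exonuclease gene crn-3 the groups did not overlap. It had 125, 132 and 131 CPM in dis-3(L75Q), against 154, 138 and 152 CPM in wild type. The log2 difference was -0.20 ± 0.09 with an unadjusted p of 0.0426 and an adjusted p of 0.296. Of the cap genes, exos-3 differed by -0.32 ± 0.18, exos-2 by -0.15 ± 0.14 and exos-1 by -0.12 ± 0.12. The ring genes differed by -0.29 (exos-4.2) to -0.02 (exos-4.1).

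Between dis-3(L75Q) and wild type, 0 of the 12 exosome genes were called (edgeR, adjusted p under 0.05), where 0.56% of all tested genes did. At an unadjusted p under 0.05 the count was 1 of 12, against 16.8% of all genes, and DESeq2 and limma-voom called 0. Groups that did not overlap, with the mutant lower, were found for 1 of 12, against 9.51% of all genes. The median log2 difference of the 12 genes was -0.13, against 0.02 over all genes, and 10 of 12 were negative. All 12 were negative when libraries were scaled by their totals alone, against 52.5% of all tested genes. Mean TPM was higher in dis-3(L75Q) for dis-3 (63.6, against 63.1 in wild type) and lower for the other members.

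In eat-2(ad1116) every exosome gene had a lower fitted level than in wild type, and none passed the test over all genes. The cap gene exos-2 had 17.6, 15.2 and 15.4 CPM in eat-2(ad1116), against 23.3, 18.6 and 23.6 CPM in wild type. The groups did not overlap, and wild type replicate 2 was the lowest of its group. The log2 difference was -0.44 ± 0.14 with an adjusted p of 0.0868 in edgeR.

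The cap gene exos-3 had the most negative value. It had 35.1, 22.8 and 26.3 CPM in eat-2(ad1116), against 40.9, 33.7 and 47.2 CPM in wild type. The groups overlapped through eat-2(ad1116) replicate 1 and wild type replicate 2. The log2 difference was -0.53 ± 0.18 with an adjusted p of 0.102 in edgeR.

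The nuclear exonuclease gene crn-3 had 135, 123 and 112 CPM in eat-2(ad1116), against 154, 138 and 152 CPM in wild type. The groups did not overlap, and the log2 difference was -0.26 ± 0.09 (edgeR adjusted p 0.0912). The ring gene exos-7 had 36.7, 38.1 and 33.2 CPM in eat-2(ad1116), against 45.1, 41.3 and 44.4 CPM in wild type. The groups did not overlap, and the log2 difference was -0.28 ± 0.09 (edgeR adjusted p 0.0855).

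The catalytic gene dis-3 had 169, 153 and 159 CPM in eat-2(ad1116), against 188, 168 and 189 CPM in wild type. The groups overlapped by the margin between 169 and 168 CPM. The log2 difference was -0.18 ± 0.08 with an adjusted p of 0.170 in edgeR. The helicase gene mtr-4 had 198, 193 and 199 CPM in eat-2(ad1116), against 223, 219 and 221 CPM in wild type, with no overlap and a log2 difference of -0.17 ± 0.07.

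The count of called genes in eat-2(ad1116) against wild type was 0 of 12 in edgeR, where 6.21% of all tested genes were called. At an unadjusted p under 0.05 the count was 8 of 12, against 26.9% of all genes. Groups that did not overlap, with eat-2(ad1116) lower, were found for 6 of 12, against 9.52% of all genes, namely crn-3, exos-1, exos-2, exos-7, exos-9 and mtr-4. The median log2 difference was -0.25, against -0.01 over all genes. Mean TPM was higher in eat-2(ad1116) for mtr-4 (72.68, against 72.56 in wild type) and exos-9 (50.96, against 50.58). It was also higher for exos-4.2 (29.27, against 28.93), and lower for the other members. In TPM the groups of mtr-4 overlapped, at 68.68 to 80.09 in eat-2(ad1116) and 70.65 to 74.98 in wild type.

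The call in this comparison turned on the tool and on single libraries. DESeq2 called 2 of 12, exos-2 (adjusted p 0.0398) and exos-7 (adjusted p 0.0369), against 14.1% of all genes it tested, and limma-voom called 0. Without wild type replicate 2 edgeR called 4 (crn-3, exos-2, exos-3 and exos-8), while the count over all genes was 2460 (14.9%), against 1009 with all libraries. Without eat-2(ad1116) replicate 1 it also called 4 (crn-3, exos-2, exos-3 and exos-7), while the count over all genes was 6161 (37.5%). Scaling by library totals alone left all 12 genes negative, with a median of -0.15, while the median of all genes was then 0.08. The count at an unadjusted p under 0.05 was 0 of 12 with that scaling, against 26.7% of all genes.

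**Figure D2:**
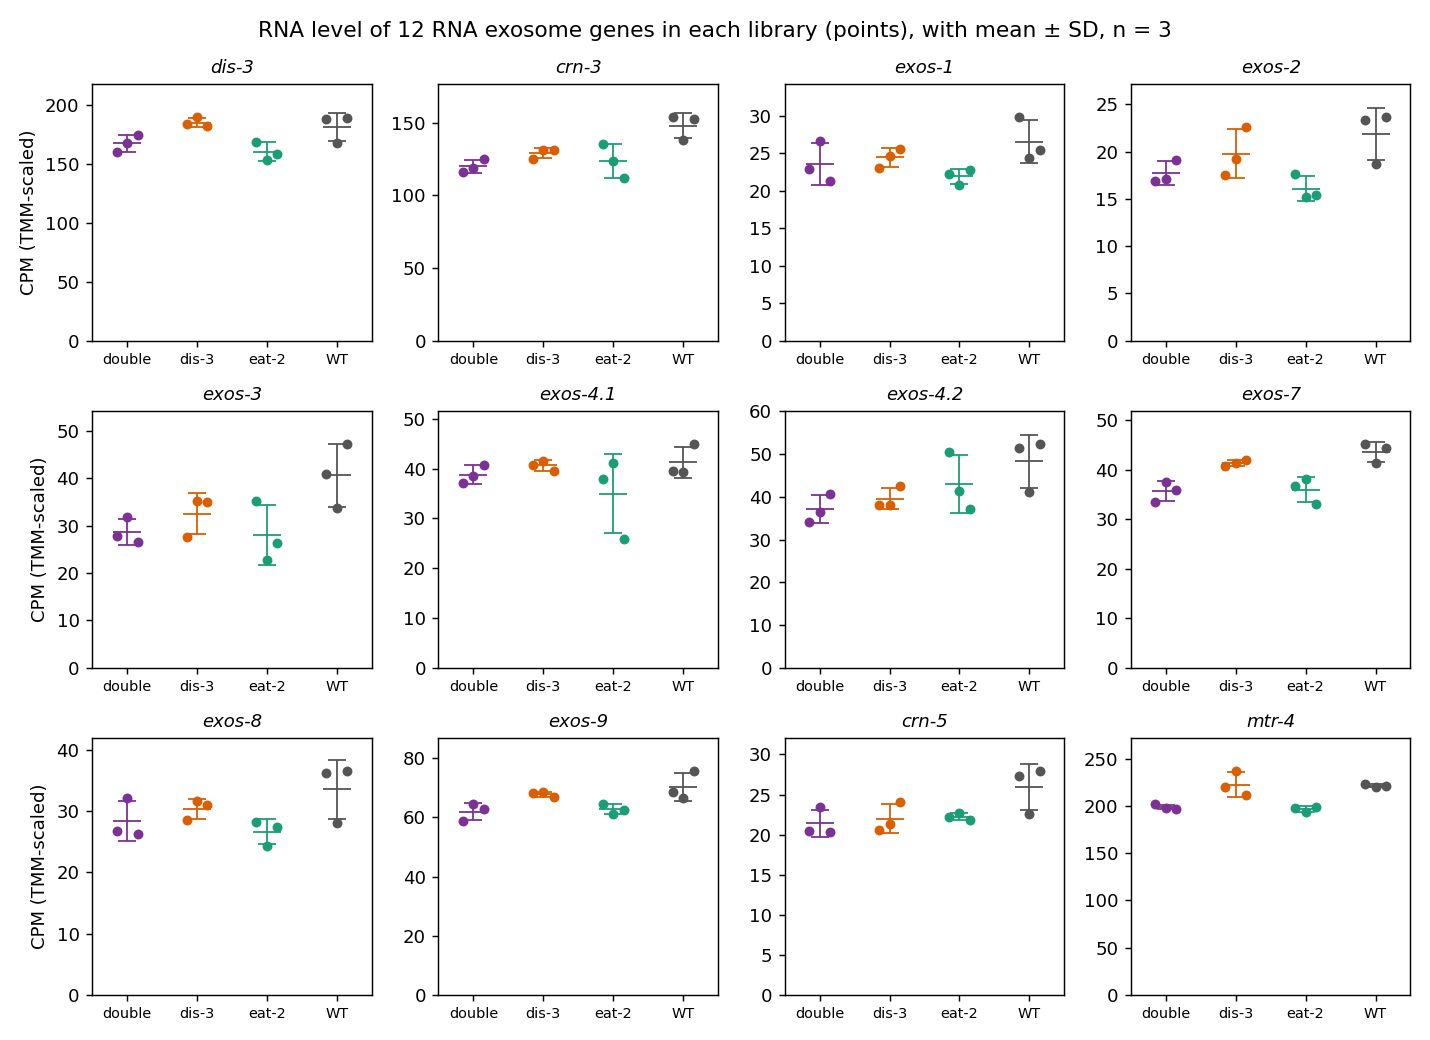
Level of each exosome gene in CPM on the y axis, 1 panel a gene, with the genotypes from the double mutant on the left to wild type on the right. Points are single libraries, and the line with its whiskers is the group mean ± SD (n = 3). All axes start at 0, and the 3 eat-2(ad1116) libraries of exos-7 sit between 33.2 and 38.1 CPM, below the wild type libraries at 41.3 to 45.1 CPM.

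In the double mutant the exosome genes were again lower in fitted level than in wild type. The gene crn-3 had between 115.8 and 124.8 CPM in the 3 double mutant libraries, against 154, 138 and 152 CPM in wild type. The groups did not overlap, and the log2 difference was -0.30 ± 0.09 with an adjusted p of 0.0736 in edgeR. The ring gene exos-7 had 33.5, 37.6 and 35.9 CPM in the double mutant, against 45.1, 41.3 and 44.4 CPM in wild type. It too showed no overlap, with a log2 difference of -0.29 ± 0.09 and an adjusted p of 0.0939 in edgeR.

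The cap gene exos-3 had 27.8, 31.8 and 26.5 CPM in the double mutant, against 40.9, 33.7 and 47.2 CPM in wild type, with no overlap and a log2 difference of -0.50 ± 0.18. The ring gene exos-4.2 had 34.1, 36.4 and 40.6 CPM in the double mutant, against 51.4, 41.1 and 52.3 CPM in wild type. These groups were separated only by the gap between 40.6 and 41.1 CPM. The gene dis-3 had 161, 168 and 175 CPM in the double mutant, against 188, 168 and 189 CPM in wild type, an overlap, and a log2 difference of -0.12 ± 0.08.

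None of the 12 passed in the double mutant against wild type in edgeR, where 4.27% of all tested genes did. The count at an unadjusted p under 0.05 was 7 of 12, against 23% of all genes. With library totals alone it was 0 of 12, against 24.2% of all genes. Groups that did not overlap, with the double mutant lower, were found for 6 of 12 (crn-3, exos-3, exos-4.2, exos-7, exos-9 and mtr-4), against 16.9% of all genes. The median log2 difference was -0.26, against 0.02 over all genes. All 12 were negative under each of the 3 scalings of counts. Of all tested genes 48.1% were negative with the trimmed mean, 52.2% with DESeq2-type size factors and 41.6% with library totals. Mean TPM was higher in the double mutant for dis-3 (63.8, against 63.1 in wild type) and exos-4.1 (35.5, against 34.5), and lower for the other members.

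Other tools moved this count as well. DESeq2 called 3, crn-3 (adjusted p 0.0165), exos-7 (adjusted p 0.0111) and mtr-4 (adjusted p 0.0492), against 11.1% of all genes it tested, and limma-voom called 0. A fit of the 6 libraries compared called crn-3 alone (edgeR adjusted p 0.0461), against 9.03% of all genes. Without wild type replicate 2 edgeR called 3 (crn-3, exos-4.2 and exos-7), while the count over all genes was 2390 (14.5%), against 695 with all libraries. The comparisons of the 3 mutants with wild type use the same 3 wild type libraries, so their values are not independent of each other.

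Against eat-2(ad1116) the double mutant, which adds dis-3(L75Q), showed no common direction. The log2 differences ran from -0.21 (exos-4.2) to 0.15 (exos-4.1), 5 of 12 were negative, and the median was 0.02. No member was called in edgeR, where 0.351% of all tested genes were. The count at an unadjusted p under 0.05 was 0 of 12, against 5.64% of all genes, and DESeq2 and limma-voom called 0. Groups that did not overlap, with the double mutant lower, were found for 0 of 12, against 4.67% of all genes. For dis-3 the log2 difference was 0.06 ± 0.08.

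Against dis-3(L75Q) the double mutant, which adds eat-2(ad1116), had log2 differences from -0.21 (exos-7) to -0.04 (crn-5), with a median of -0.12. No member was called in edgeR, where 1.24% of all tested genes were. DESeq2 and limma-voom called 0, and 2 of 12 (exos-7 and mtr-4) had an unadjusted p under 0.05, against 10.4% of all genes. Groups did not overlap, with the double mutant lower, for 5 of 12 (dis-3, crn-3, exos-7, exos-9 and mtr-4), against 11% of all genes. The number of negative values changed with the scaling, for the members and for all genes. All 12 were negative with trimmed-mean scaling and with DESeq2-type size factors, where 43.8% and 49.3% of all tested genes were. With library totals 6 of 12 were, against 28.2% of all tested genes. In that order of scalings the median of the members was -0.12, -0.16 and 0.00, against 0.05, 0.00 and 0.16 over all genes. Groups that did not overlap with the mutant named first higher were found for 0 of 12 in all 5 pairwise comparisons, where the share of all genes was 9.37% for dis-3(L75Q) against wild type, 12.1% for eat-2(ad1116) against wild type, 20.4% for the double mutant set against wild type, 7.68% for it against eat-2(ad1116) and 11.2% for it against dis-3(L75Q).

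The interaction of the alleles asks whether the step from wild type to eat-2(ad1116) differs in a dis-3(L75Q) background. The interaction values ran from 0.01 (mtr-4) to 0.35 (exos-3) on the log2 scale, with a median of 0.16, against -0.02 over all genes. No member was called in edgeR, where 0.0615% of all tested genes were. The count at an unadjusted p under 0.05 was 0 of 12, against 7.26% of all genes, and DESeq2 and limma-voom called 0. With DESeq2-type size factors 3 of the 12 values were negative.

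**Figure D3:**
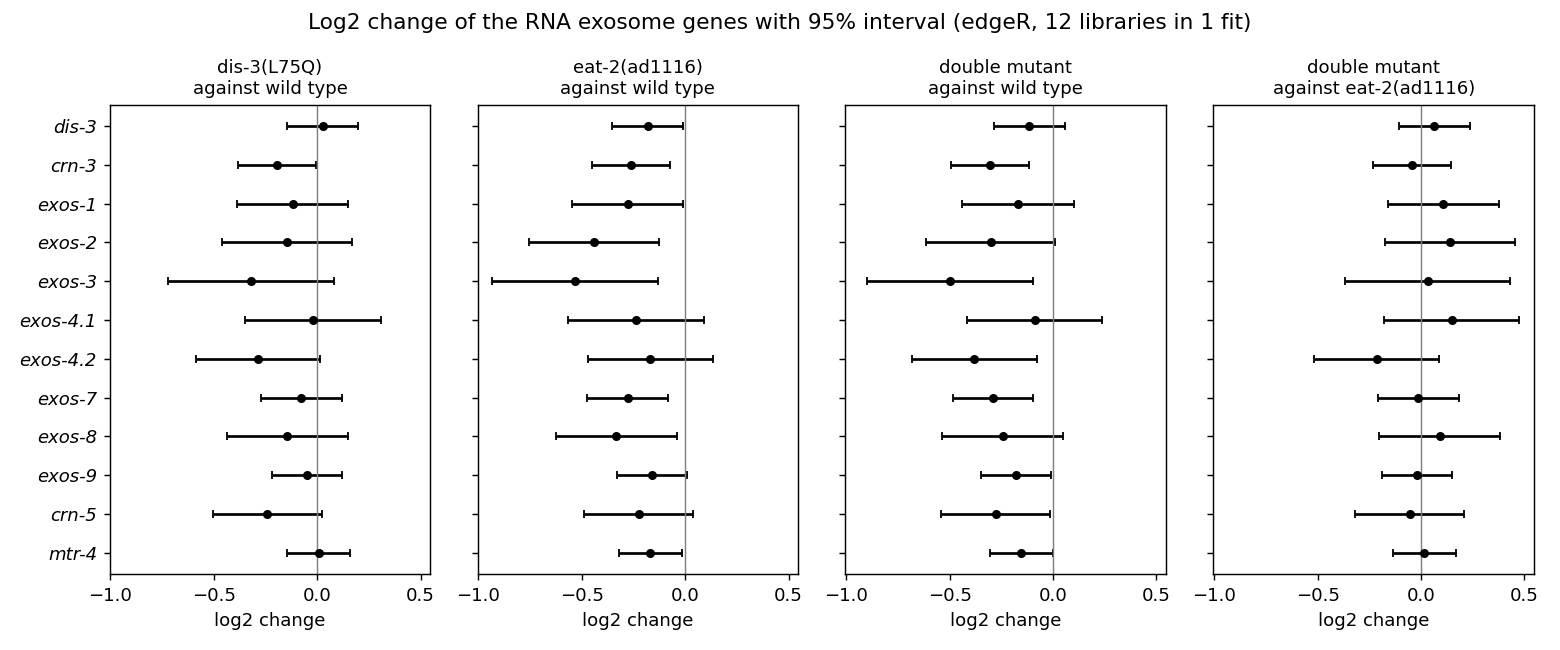
Log2 difference of each exosome gene on the x axis with its 95% interval from edgeR, in 1 panel each for dis-3(L75Q), eat-2(ad1116) and the double mutant, all against wild type, with a last panel for the double mutant set against eat-2(ad1116). Points left of 0 are lower in the group named first in the panel title. All 12 points are left of 0 in the panels of eat-2(ad1116) and of the double mutant against wild type, from -0.53 to -0.16 and from -0.50 to -0.09.

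Scaling affects all genes of a library alike, so the ratio of the catalytic genes was also taken within each library. The dis-3 to crn-3 ratio of TPM does not depend on how libraries are scaled. It was 1.24, 1.26 and 1.26 in the double mutant, 1.32, 1.29 and 1.25 in dis-3(L75Q), and 1.12, 1.11 and 1.27 in eat-2(ad1116), against 1.10, 1.09 and 1.11 in wild type. All 9 mutant values were above the 3 wild type values, although the lowest eat-2(ad1116) value and the highest wild type value both round to 1.11. The differences in log2 ratio were 0.19 for the double mutant, 0.22 for dis-3(L75Q) and 0.08 for eat-2(ad1116).

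Each of these comparisons had an exact permutation p of 0.1 (two-sided), the smallest that 3 against 3 libraries can give, and 0.167 after adjustment over 5 comparisons. The share of all other genes to which dis-3 had a ratio that was higher without overlap was 11.1% for the double mutant, 16.7% for dis-3(L75Q) and 4.24% for eat-2(ad1116). Between the double mutant and the single mutants the ratios overlapped, with an exact permutation p of 0.4 against eat-2(ad1116) and 0.3 against dis-3(L75Q), where that share was 6.08% and 3.75%. The ratio and this background were chosen after values of both genes had been seen.

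A measure of developmental stage was also taken in each library. The stage score is the mean log2 CPM of 43 tested molting genes, which are used before adulthood, minus that of 40 oocyte and eggshell genes. A higher score therefore means more molting and less oocyte RNA. It was 1.76, 1.32 and 1.20 in the double mutant, 2.71, 2.24 and 0.0977 in dis-3(L75Q), and -0.394, 2.38 and 2.39 in eat-2(ad1116), against -1.63, 1.12 and -2.60 in wild type. In whole animals fewer cells of a type and less RNA per cell cannot be told apart.

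No marker of either list was at 0 in all libraries, with 44 of 44 molting and 40 of 40 oocyte and eggshell genes matched. Summed oocyte and eggshell levels were between 3051 and 4016 CPM in the double mutant, between 2121 and 4697 CPM in dis-3(L75Q), between 1762 and 6349 CPM in eat-2(ad1116), and between 3943 and 8094 CPM in wild type. Summed molting levels were between 11058 and 11948 CPM in the double mutant, between 8678 and 15731 CPM in dis-3(L75Q), between 6180 and 10517 CPM in eat-2(ad1116), and between 2281 and 11319 CPM in wild type. Set against wild type, the score had an exact permutation p of 0.1 in the double mutant, where the groups did not overlap, and of 0.2 in each single mutant, where they did. Adjusted over 5 comparisons it was 0.333 in each of the 3, so none passed.

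Markers of other tissues, with none at 0 in all libraries, were also compared. Of 45 germline genes, 44 had a negative log2 difference from wild type in each of the 3 mutants, with a median of -0.24 in the double mutant, -0.31 in dis-3(L75Q) and -0.26 in eat-2(ad1116). The medians of the 12 exosome genes were -0.26, -0.13 and -0.25 for the same genotypes. The medians of 27 sperm genes were -0.50, -0.76 and -0.90, those of 22 neuron genes 0.50, 0.38 and 0.62, those of 20 body wall muscle genes 0.09, 0.19 and 0.06, and those of 18 tested intestine genes 0.12, 0.21 and 0.04. Summed germline levels were between 4566 and 5017 CPM in the double mutant, between 4280 and 5242 CPM in dis-3(L75Q), between 3832 and 5588 CPM in eat-2(ad1116), and between 4911 and 6335 CPM in wild type. The part of germline RNA in the exosome values was not tested.

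Across the 12 libraries the log2 level of each of the 12 genes had a negative Pearson correlation with the stage score, where 46.4% of all tested genes did. The correlation was strongest in exos-4.2 (r = -0.868, Spearman rho = -0.755), exos-3 (r = -0.852, rho = -0.804) and crn-5 (r = -0.846, rho = -0.615), and weakest in mtr-4 (r = -0.244, rho = -0.231). By permutation, with adjustment over the 12 genes, r passed 0.05 for crn-3, exos-2, exos-3, exos-4.2, exos-8 and crn-5, and rho passed for crn-3, exos-2, exos-3 and exos-4.2. For dis-3, r was -0.503 with an adjusted permutation p of 0.116. These values share scaling and genotype across libraries.

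The relation of levels to the score was weaker without wild type replicates 1 and 3, the libraries farthest from the median score. There r was -0.701 for exos-4.2 (permutation p 0.0211), -0.634 for exos-3 (permutation p 0.0501) and -0.532 for crn-3 (permutation p 0.116). It was -0.127 for dis-3 and 0.212 for mtr-4. Of the 6 genes that had passed, all but exos-4.2 had a permutation p above 0.05 without these libraries. Leaving them out also lowers the number of libraries and narrows the range of the score. How far the relation over all libraries rests on them was therefore not tested. With all 12 libraries, and level and score taken as deviations from their genotype means, r was negative for 11 of 12 genes with a median of -0.691. It was -0.929 for exos-2, -0.891 for exos-4.2 and -0.709 for dis-3, and 0.203 for mtr-4. The share of all tested genes with a negative r was not taken for these deviations. With the stage score as a covariate, the median log2 difference of the 12 genes was -0.12 for the double mutant, 0.01 for dis-3(L75Q) and -0.15 for eat-2(ad1116), each against wild type. The values were negative for 12, 5 and 11 of the 12 genes in that order of genotypes, against 43.1%, 51.5% and 50.3% of all tested genes. Of the 12 genes 0 were called, where 623, 71 and 785 of the 16259 tested genes were. The part of stage in the levels was not tested beyond these values.

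**Figure D4:**
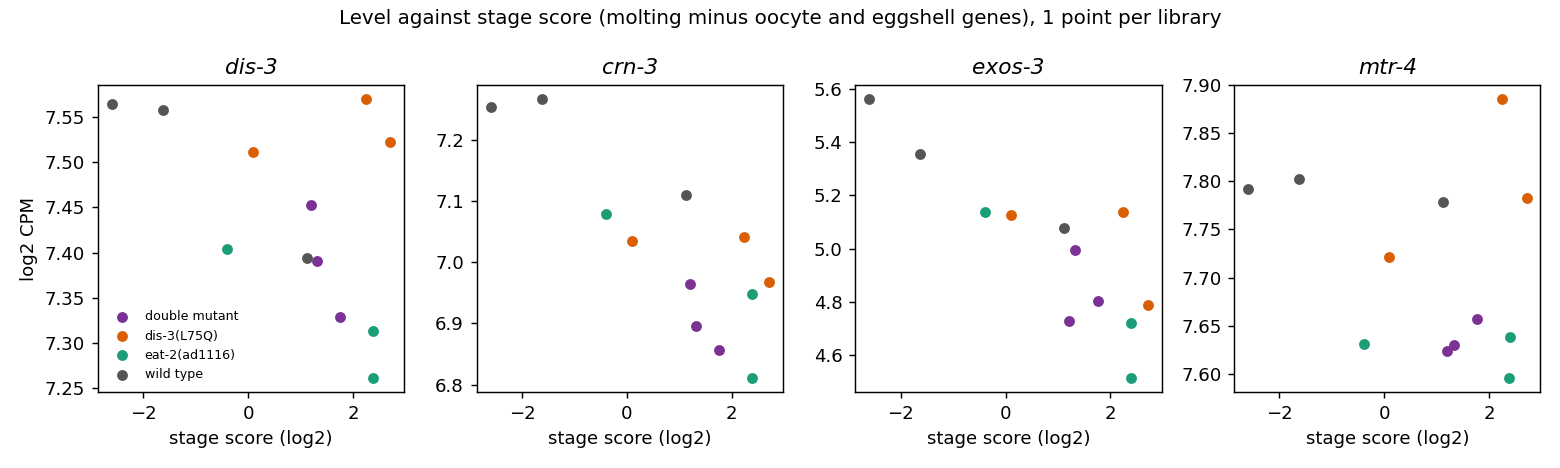
Level of dis-3, crn-3, exos-3 and mtr-4 in log2 CPM on the y axis against the stage score of each library on the x axis, 1 panel a gene and 1 point a library, coloured by genotype. Wild type replicates 1 and 3 lie at the low end of the score, at -1.63 and -2.60. The points of crn-3 and exos-3 run downwards to the right, and those of mtr-4 do so least (r = -0.244).

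The levels of the members were correlated with each other over the 12 libraries. Of 66 gene pairs, 66 had a positive Pearson correlation of log2 CPM, with a median of 0.693 and a range from 0.160 to 0.898. Over all pairs of tested genes the median was -0.004 and 49.77% were positive. After the genotype means were taken out the median of the 66 pairs was 0.455, with 59 positive, against 50.3% of all pairs. The 7 negative pairs all held mtr-4 or exos-4.1, and the lowest was exos-1 with exos-4.1 at -0.324. The gene with the lowest median correlation to the others was exos-4.1, at 0.384. The libraries are shared by all pairs, and the values describe these 12 libraries only. Pairs of genes of like level were not compared. All 12 members also had a negative correlation with the stage score, and its part in these pair values was not tested.

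The value of exos-4.1 depends on how reads were divided at its locus. It shares 1184 of its 1266 annotated exon bases (93.5%) with tin-9.2, a gene of the mitochondrial import machinery on the same strand, and this is 81.2% of the exon bases of tin-9.2. Only 1 coding base is shared. It was the only member whose deposited expected counts were not whole numbers, in all 12 libraries. Of the counts given to either gene, 82.4% to 88.6% went to exos-4.1.

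The library eat-2(ad1116) replicate 3 was low at this locus. It had 26.0 CPM for exos-4.1, against 37.9 and 41.2 CPM in the other eat-2(ad1116) libraries. The sum of both genes was 29.6 CPM in that library, against 44.96 and 46.8 CPM in the other eat-2(ad1116) libraries, and its share given to exos-4.1 was 87.6%, within the range of the others. The log2 difference of exos-4.1 in eat-2(ad1116) against wild type was -0.24 ± 0.15 with this library and -0.06 ± 0.10 without it. With the double mutant set against eat-2(ad1116) it was 0.15 ± 0.15 with it and -0.03 ± 0.10 without it. Some other members overlap genes on the opposite strand, namely exos-2 with Y73B6BL.22, exos-7 with F31D4.2 over 9 bases and crn-5 with C14A4.6 over 63 bases, and strand use in counting is not given in the sources used here.

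**Figure D5:**
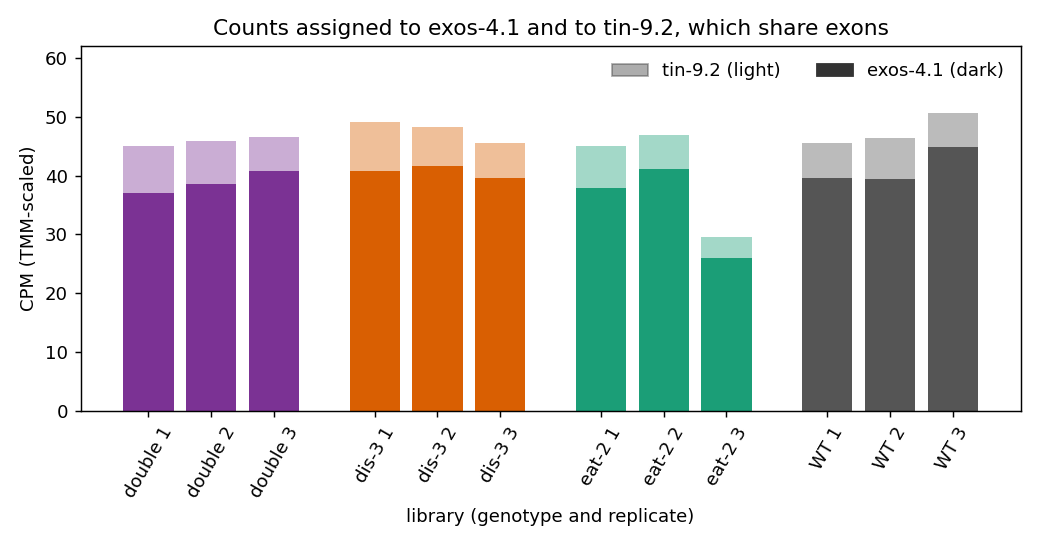
CPM given to exos-4.1 (dark) and, stacked on it, to tin-9.2 (light) in each library on the y axis, with libraries by genotype and replicate on the x axis. The whole bar is the sum, 29.6 CPM in eat-2(ad1116) replicate 3 and 44.96 to 50.7 CPM in the other 11 libraries.

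Other genes of RNA turnover were read from lists of known function. Neither dis-3(L75Q) set against wild type nor the double mutant set against eat-2(ad1116) gave a call among 14 exosome-linked factors, 14 other nucleases, 25 deadenylation and decapping genes, 11 genes of nonsense-mediated decay, 33 ribosome biogenesis genes and 31 proteasome genes. The share called over all tested genes was 0.56% in the first of these comparisons and 0.351% in the second. In eat-2(ad1116) against wild type, 0 of the 14 exosome-linked factors were called. Of 14 other nucleases 1 rose (cps-6, a mitochondrial endonuclease G, log2 0.41 ± 0.10). Of 25 deadenylation and decapping genes 1 fell (lsm-4, log2 -0.52 ± 0.10). Over all 16259 tested genes 664 rose and 345 fell in this comparison. For nonsense-mediated decay 0 of 11 were called. The median log2 difference of the 14 exosome-linked factors was -0.24 in the double mutant, -0.12 in dis-3(L75Q) and -0.19 in eat-2(ad1116), each against wild type. DESeq2 called 2 of these 14 factors lower in the double mutant, against 5.26% of all genes, and 1 in eat-2(ad1116), against 4.51%.

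Ribosome biogenesis, which needs the exosome to trim ribosomal RNA precursors, had 10 of 33 genes that fell in eat-2(ad1116) against wild type, where 2.12% of all tested genes did. The 3 with the smallest p were rpoa-2 (log2 -0.40 ± 0.07), wdr-12 (-0.42 ± 0.09) and nsun-1 (-0.38 ± 0.08). The count was 3 with library totals, where 232 of the 16259 tested genes fell. It was 14 in DESeq2, where 4.51% of all genes it tested fell. With the stage score as a covariate it was 5, where 486 of the 16259 tested genes fell. Among proteasome genes 11 of 31 fell, with pas-2 at -0.33 ± 0.07, rpn-12 at -0.34 ± 0.07 and rpn-5 at -0.32 ± 0.07. For these genes library totals gave 0, DESeq2 gave 22 and the stage covariate gave 7.

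In the double mutant against wild type 4 of 33 ribosome biogenesis genes fell, against 1.73% of all tested genes. Among them were rpoa-2 (-0.39 ± 0.07), wdr-12 (-0.46 ± 0.09) and ruvb-2 (-0.36 ± 0.08). With library totals 1 of 33 fell, where 243 of the 16259 tested genes did. The gene cps-6 rose by 0.43 ± 0.10 in the main fit, where 413 of the 16259 tested genes rose. No proteasome gene was called there. Each call named from these lists was lost without wild type replicate 1 and without wild type replicate 3. Each was also lost without at least 1 of the mutant libraries, except that of rpoa-2 in eat-2(ad1116) against wild type.

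Over the 12 libraries the genes most like dis-3, among 6621 non-member genes with a gene-class name and at least 5 CPM, were mrpl-21 (r = 0.918), pabp-2 (r = 0.917), coq-5 (r = 0.913), rpn-7 (r = 0.905) and syf-3 (r = 0.902). The genes most like the mean of the members were rpc-1 (r = 0.974), cux-7 (r = 0.973), krr-1 (r = 0.972), hoe-1 (r = 0.969) and rpl-11.1 (r = 0.968). With the genotype means taken out, the genes most like dis-3 were ctf-18, npp-16, mics-1, dph-7 and rae-1 (r from 0.927 to 0.953). Those most like the mean of the members were sna-3, ets-6, srp-2, tdp-1 and pink-1 (r from 0.972 to 0.985). These are the highest of 6621 values and are given as a description of these libraries.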

How the data were processed

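The authors deposited expected counts per gene, 1 file a library, which estimate fragments and are scaled neither to depth nor to length, per the file headers. STAR 2.7.0e, RSEM 1.3.1 and the builds WBcel235 and ce11 are named in the submitters' processing notes. The sources used here give no annotation, RNA selection or strand setting. Coordinates, exon lengths and symbols came from the Ensembl release 115 annotation of WBcel235, which matched 46924 of 46934 entries by identifier.

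Counts were rounded to whole numbers. The main test was edgeR's robust quasi-likelihood F test (edgeR 4.0.16, R 4.3.3) with TMM scaling and filterByExpr by genotype, in a single fit of the 12 libraries. The call threshold was 0.05 for p adjusted by Benjamini-Hochberg over all 16259 genes. Tests were two-sided. CPM used TMM-scaled library sizes, and TPM did not. Counting error was taken as the square root of the count and covers counting only. DESeq2 1.42.0, limma 3.58.1 (voom), other scalings and filters, a stage covariate, a replicate block and leave-one-out fits were alternatives. Permutation tests used scipy 1.17.1, exact for 3 against 3 libraries and with 100000 permutations for correlations. Plots used matplotlib 3.10.9. The tests were checked on simulated counts with the same spread for every gene and no outlying library. That check does not cover the differences between replicates seen here.

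The exosome genes and the lists were chosen with earlier results of these data known. The rule named every exosome gene, up to 3 called genes with the smallest p from each list and comparison, and the 5 genes most like dis-3 and the exosome mean. The p-values of the main test rest on the spread between harvests within a strain, estimated jointly over the 4 genotypes. Those of the correlations come from permuting the 12 libraries across genotypes. Replicates differed by more than sampling noise, and all were kept. Same-numbered libraries were not paired.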

Additional observations from a re-analysis of the deposited data

How the results depend on the processing

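Counts of called exosome genes were 0 in all 6 comparisons under limma-voom, DESeq2-type size factors, library totals, no filter, a stricter filter and the stage covariate. In eat-2(ad1116) against wild type the count was 2 in DESeq2 and 0 to 4 with 1 library left out. In the double mutant against wild type it was 3 in DESeq2, 1 in a fit of the 6 libraries compared and 0 to 3 with 1 library left out. In the other 4 comparisons it was 0 throughout. Over all genes, the number called ranged with the setting from 84 to 6161 in eat-2(ad1116) against wild type (1009 as reported), from 230 to 2390 in the double mutant against wild type (695) and from 30 to 1306 in dis-3(L75Q) against wild type (91). It ranged from 74 to 688 in the double mutant against dis-3(L75Q) (202), from 25 to 255 against eat-2(ad1116) (57) and from 3 to 2214 for the interaction (10). The cause was not tested.

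Of the log2 differences of single exosome genes under the alternatives, 1045 kept their direction and stayed uncalled, 17 kept their direction and were called, and 78 changed sign and were uncalled in both settings.

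The replicate block called 0 of 12 exosome genes in each comparison. Correlations of same-numbered libraries ran from -0.312 to 0.424 with mixed signs, and 4 of 12 libraries correlated best with their own number, so the numbers were not taken as pairs.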

Other observations

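The genes next to the exosome genes were read as well. Of the annotated neighbours on the same strand within 1 kb and the genes that overlap an exosome gene, 15 were tested and none was called in edgeR in any comparison. The lowest adjusted p in edgeR was 0.0811, for pfd-5, upstream of exos-9, in the double mutant against dis-3(L75Q) (log2 -0.32 ± 0.07). The log2 difference of algn-9, which lies upstream of crn-3, was -0.15 in the double mutant, -0.14 in dis-3(L75Q) and -0.08 in eat-2(ad1116), each against wild type. Those of crn-3 itself were -0.30, -0.20 and -0.26, and those of crn-5, downstream of it, were -0.28, -0.24 and -0.22. For ndub-10, downstream of exos-3, the values were 0.08, 0.22 and 0.07, against -0.50, -0.32 and -0.53 for exos-3. Y48A6B.3, upstream of exos-1, had -0.20, -0.10 and -0.25, against -0.17, -0.12 and -0.28 for exos-1. F41G3.6, downstream of exos-8, had -0.51, -0.47 and -0.39, against -0.24, -0.14 and -0.33 for exos-8. The neighbours thus had no common direction, and whether they vary with their members was not tested.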
